A study of Homo sapiens with 6 samples.

Results

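The 45 genes described here encode the proteins that process miRNAs, load them onto target mRNAs and degrade those mRNAs. They were chosen by name from known roles, with no threshold on their values but with earlier results of these data known, and all 45 were found among the 58174 genes of the deposited table (ZCCHC11 and ZCCHC6 are also known as TUT4 and TUT7). Levels were measured by polyA RNA-seq in A549 cells, an established human line derived from a lung adenocarcinoma. The 3 Ctrl libraries came from parental cells with an unedited MIR21 locus. The 3 MIR21-KO libraries came from cells in which the MIR21 locus had been deleted by CRISPR/Cas9, after transfection with plasmids for Cas9 and a pair of guide RNAs and sorting of single RFP- and GFP-positive cells. Both groups grew in DMEM with fetal bovine serum and were harvested 48 h after seeding. How many single-cell clones gave rise to the MIR21-KO libraries is not given in the sources used here, so properties of a clone and effects of the deletion cannot be told apart. The labels do not say whether the libraries of a group came from separate cultures, while the study describes its samples as independent biological replicates. The p-values measure the spread between these libraries.

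The deposited values are FPKM, fragment numbers scaled for gene length and for the size of the library, which allows levels of different genes to be set side by side. The length is the one deposited for each gene and may not be that of the transcripts in these cells. Orders, shares and ratios between genes depend on it. Reads recovered from the table summed to between 10631667 and 14345209 per library, and every one of the 45 genes had at least 91 reads in each library. The targeted gene, MIR21, was listed at 0 FPKM in all 6 libraries. Libraries of polyA RNA hold neither the mature miRNA nor its hairpin precursor, and the zeros do not check the labels. The A549 label was checked against 9 epithelial and A549 marker genes, which were all found and summed to 2917 to 3095 FPKM in Ctrl and 2034 to 2618 FPKM in MIR21-KO. The markers were uneven, and EPCAM had 0.389 to 1.65 FPKM over the 6 libraries. Mean CDH1 fell from 8.18 to 2.86 FPKM and mean AKR1C2 from 266 to 104 FPKM in MIR21-KO (FDR = 0.000175 and 0.000381, limma). The other 7 were not called at an FDR under 0.01. Defining markers of leukocytes (5 genes) and endothelium (3 genes) summed to at most 0.369 and 0.0707 FPKM in any library. The sum of 6 fibroblast markers was 5.52 to 5.89 FPKM in Ctrl and 5.42 to 7.74 FPKM in MIR21-KO, with COL1A2 at 0 in each library. Of 6 markers of alveolar type II cells, SFTPA1 was at 0 in each library and NKX2-1 was not analysed here. The sum over the other alveolar markers, nearly all of it ABCA3, was 4.72 to 5.58 FPKM in Ctrl and 6.93 to 7.69 FPKM in MIR21-KO.

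miRNA genes are transcribed as long primary transcripts, from which the nuclear Microprocessor (DROSHA with DGCR8) cuts a hairpin. XPO5 carries the hairpin to the cytoplasm with RAN-GTP, DICER1 trims it to a duplex, and one strand is kept by an Argonaute protein. Argonautes recruit GW182 scaffold proteins to target mRNAs, and these in turn recruit the PAN2-PAN3 and CCR4-NOT deadenylases. The shortened mRNAs are decapped by DCP2 with its activators and degraded from the 5′ end by XRN1. In lung adenocarcinoma cells miR-21-5p is known as a highly abundant miRNA.

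To see whether the machinery differed between MIR21-KO and parental cells, the 45 genes were read from a test of all 16006 genes that averaged 0.5 FPKM or more. All 45 passed that filter. In 4 roles a gene rose in MIR21-KO cells, namely the Argonaute AGO4, the GW182 scaffold TNRC6C, the deadenylase PAN2 and ZSWIM8, which directs the degradation of Argonautes engaged with certain targets. These were 4 of 45 genes at an FDR under 0.01 (limma), or 8.89%, where 7.66% of all tested genes were called higher and 16.0% were called in either direction. A share of that size lies near the background. Called lower were 0 of 45 genes by limma, against 8.38% of all tested genes. At an unadjusted p under 0.05, 16 of the 45 genes were lower and 5 were higher, against 22.5% and 20.7% of all tested genes.

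Lower values were nevertheless more frequent than higher ones among these genes. The 3 MIR21-KO values lay below all 3 Ctrl values in 18 of 45 genes (40.0%) and above them in 8 (17.8%). Among all tested genes the corresponding shares were 25.2% and 22.8%, and 48.1% did not overlap in either direction. The log2 fold change was below 0 in 31 of the 45 genes (68.9%) and in 51.5% of all tested genes. This excess was smaller when trends of the libraries on GC content and gene length, described below, were removed. CNOT2, CNOT6L, PARN, DCP2 and DDX6 then came out above 0, and the share of all tested genes below 0 is not given for that setting. The median log2 fold change was -0.18 for the 45 genes, -0.02 for all tested genes and -0.04 for tested protein-coding genes. A lower FPKM can stand for less RNA in each cell or for fewer cells that express the gene, which bulk libraries cannot tell apart. The sum of 10 proliferation markers moved the same way, from 858 to 879 FPKM in Ctrl to 599 to 621 FPKM in MIR21-KO. Of the 10 markers, 6 were called lower (60.0%, against 8.38% of all tested genes). The part of proliferation in the lower values was not tested.

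Whether a gene was called lower turned on the test. limma on the recovered reads (voom) called the same 4 genes higher and 6 lower, namely DROSHA, XPO5, RAN, CNOT1, CNOT7 and EDC4, where voom called 10.5% of all tested genes higher and 11.4% lower. Scaling the libraries by median ratios gave 4 higher genes and 1 lower gene, RAN, where 7.65% and 8.65% of all tested genes were called. Scaling by total reads gave 3 higher genes, without TNRC6C, and again RAN lower, where 7.35% and 9.63% of all tested genes were called.

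**Figure D1:**
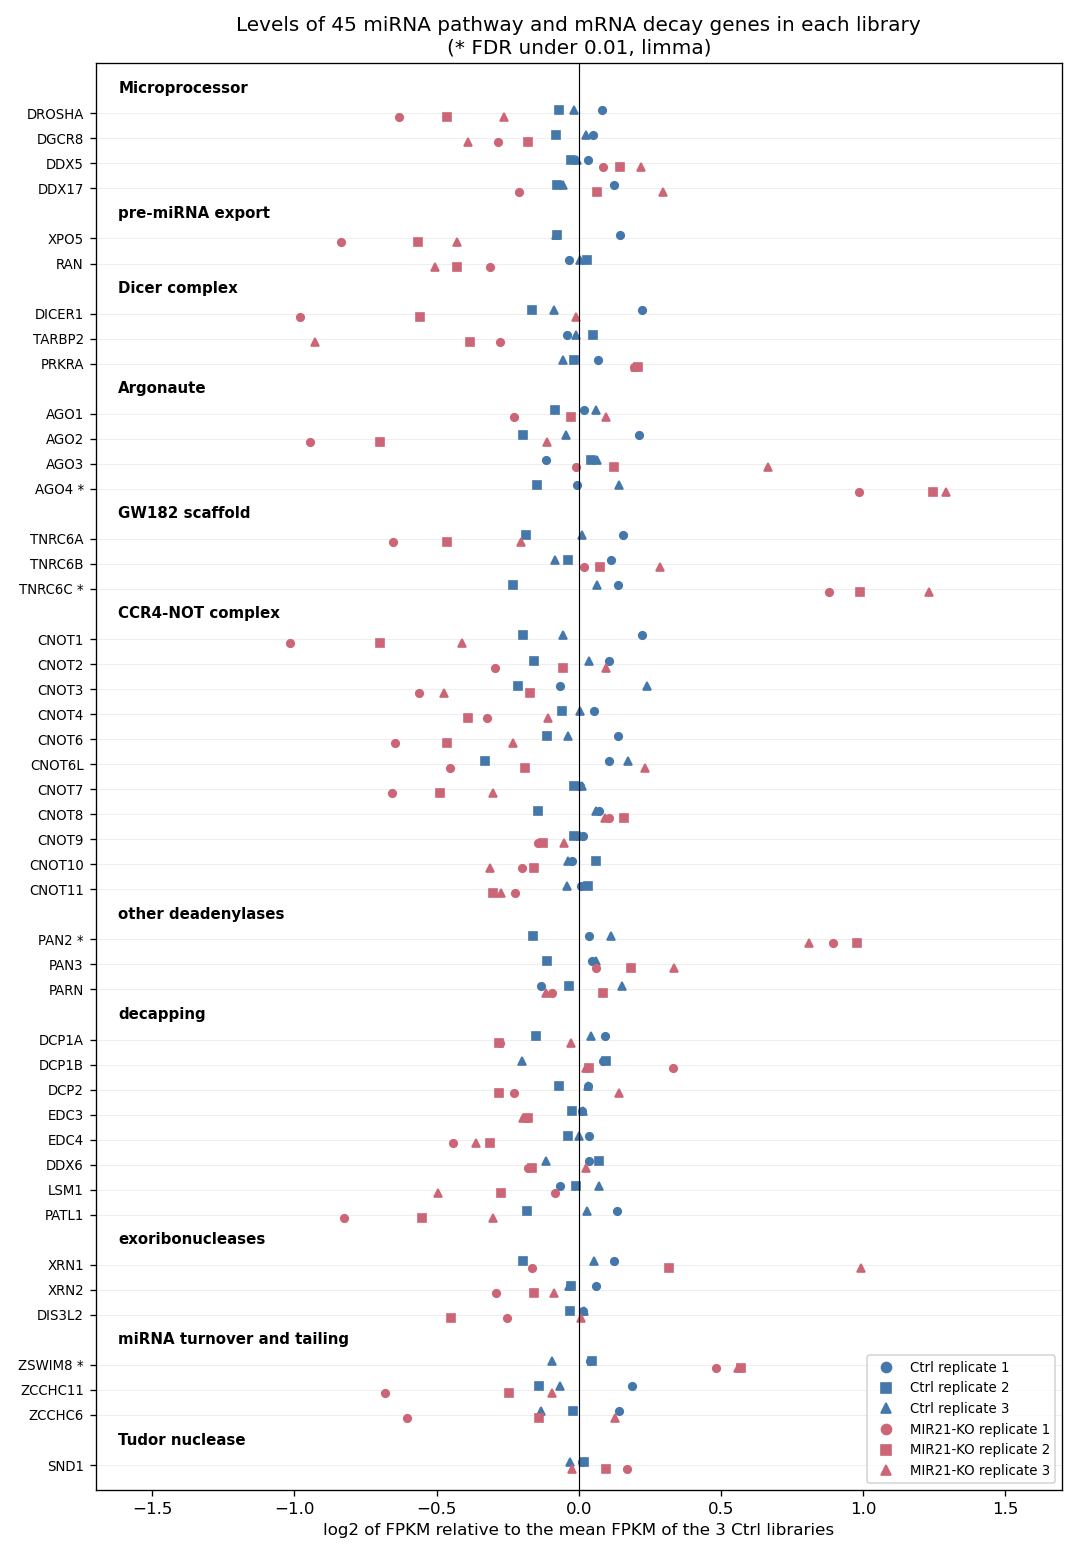
Level of each of the 45 genes in each library, as log2 of FPKM relative to the mean of the 3 Ctrl libraries (x axis), grouped by role. Blue marks are Ctrl and red marks MIR21-KO libraries, and the 4 genes with an asterisk passed an FDR of 0.01, each with all 3 MIR21-KO values above 0.48 on this scale.

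The MIR21-KO libraries were less alike than the Ctrl libraries for these genes. In 25 of the 45 genes MIR21-KO replicate 1 was the lowest and replicate 3 the highest of the 3 MIR21-KO libraries, an order found in 28.8% of all tested genes. The same 2 libraries lay apart by base composition. Tested genes were split into 4 equal classes by GC content, and the median log2 deviation from a gene's mean over all libraries was taken. In the lowest class it was -0.19, -0.11 and 0.08 in MIR21-KO replicates 1 to 3 and 0.06 to 0.13 in the Ctrl libraries. In the highest class it was 0.20, 0.09 and -0.11 in MIR21-KO and -0.09 to -0.02 in Ctrl. The trend thus also ran along the groups, with MIR21-KO replicate 3 on the side of Ctrl. The 45 genes had a median transcript GC content of 44.5% and a median deposited gene length of 7.29 kb, compared with 48.7% and 3.86 kb for all tested genes. When the trend of every library on GC content and length was removed, 9 of the 45 genes were called lower and 4 higher, where 13.4% and 11.4% of all tested genes were. The lower genes were DROSHA, XPO5, TARBP2, TNRC6A, CNOT1, CNOT6, CNOT11, EDC4 and LSM1. Among the higher ones were AGO4, PAN2 and TNRC6C, while DDX5 took the place of ZSWIM8. Without MIR21-KO replicate 3, 8 genes were called lower and 3 higher, where 11.4% and 10.1% of all tested genes were.

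Nuclear processing was examined first. Of the 4 Microprocessor genes, DDX5, an RNA helicase that assists DROSHA on a subset of primary transcripts, was by far the most abundant, with 102, 97.9 and 99.2 FPKM in Ctrl replicates 1 to 3 and 106, 110.3 and 116 FPKM in MIR21-KO replicates 1 to 3. The groups did not overlap, but the log2 fold change of 0.15 ± 0.074 (SE) missed the threshold (FDR = 0.169, limma). The least abundant was DGCR8, which binds the hairpin for DROSHA, with 6.98, 6.38 and 6.87 FPKM in Ctrl and 5.54, 5.95 and 5.14 FPKM in MIR21-KO (FDR = 0.0595, limma). All 3 MIR21-KO values lay below the Ctrl values. DROSHA, the nuclease itself, had 11.3 ± 0.608 FPKM in Ctrl and 8.31 ± 1.06 FPKM in MIR21-KO (mean ± SD of 3 libraries per group, as for all values written in this form), again without overlap (log2 fold change -0.45 ± 0.110, FDR = 0.0221, limma). DDX17, the close relative of DDX5, overlapped between groups, with 35.6 to 40.9 FPKM in Ctrl and 32.5 to 46.1 FPKM in MIR21-KO. The ratio of DDX5 to DDX17 was 2.66 ± 0.146 in Ctrl and 2.86 ± 0.371 in MIR21-KO.

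Both genes of hairpin export were lower in each MIR21-KO library than in any Ctrl library, although neither passed the threshold. XPO5, the exportin for precursor hairpins, had 9.93, 8.52 and 8.50 FPKM in Ctrl and 5.03, 6.08 and 6.68 FPKM in MIR21-KO, a log2 fold change of -0.60 ± 0.128 (FDR = 0.0137, limma). RAN, the GTPase that drives nuclear transport, was the most abundant of the 45 mRNAs, with 172, 179 and 176 FPKM in Ctrl and 142, 131 and 124 FPKM in MIR21-KO, a log2 fold change of -0.41 ± 0.083 (FDR = 0.0104, limma). XPO5 and RAN stood just outside the threshold and were singled out after their values were seen. RAN has 9 annotated processed pseudogenes, which could share reads with it, and the most abundant of them, RANP1, had a mean of 1.14 FPKM over the 6 libraries. XPO5 overlaps POLR1C on the opposite strand (a mean of 11.5 FPKM), and whether counting used the strand is not given in the sources used here.

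In the Dicer complex, DICER1 was the least abundant gene and the most variable. Its level was 7.30, 5.58 and 5.89 FPKM in Ctrl and 3.17, 4.25 and 6.22 FPKM in MIR21-KO, so that MIR21-KO replicate 3 lay within the Ctrl range and the groups overlapped (log2 fold change -0.50 ± 0.243, FDR = 0.167, limma). TARBP2, a double-stranded RNA binding partner of DICER1, was the most abundant, with 9.55, 10.2 and 9.76 FPKM in Ctrl and 8.11, 7.55 and 5.17 FPKM in MIR21-KO (FDR = 0.0561, limma). The related partner PRKRA went the other way, from 8.59 ± 0.386 to 9.87 ± 0.057 FPKM (FDR = 0.0797, limma), and neither gene overlapped between groups. TARBP2 made up 53.4 ± 1.69% of the summed FPKM of the pair in Ctrl and 40.9 ± 5.78% in MIR21-KO, with 34.4% in replicate 3 and 45.2% in replicate 1.

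Among the Argonautes, AGO4 rose 2.27-fold. It was measured at 1.30, 1.18 and 1.44 FPKM in Ctrl and at 2.59, 3.09 and 3.19 FPKM in MIR21-KO, a log2 fold change of 1.12 ± 0.148 (FDR = 0.00221, limma). All 3 MIR21-KO values exceeded the Ctrl values by a wide margin, on 92 to 143 reads per library in Ctrl and 256 to 301 in MIR21-KO. AGO2, the one Argonaute that is a strong target slicer, was the most abundant in Ctrl, with 6.36, 4.79 and 5.32 FPKM, and had 2.85, 3.38 and 5.08 FPKM in MIR21-KO, a log2 fold change of -0.56 ± 0.222 (FDR = 0.0989, limma). MIR21-KO replicate 3 lay within the Ctrl range. Without that library AGO2 passed the threshold (FDR = 0.00929, and 0.00929 to 0.254 over all alternatives). AGO3 was the least abundant, with 0.858, 0.958 and 0.971 FPKM in Ctrl and 0.923, 1.01 and 1.47 FPKM in MIR21-KO, and its groups overlapped. AGO1 differed least, with 2.92 ± 0.148 FPKM in Ctrl and 2.83 ± 0.314 FPKM in MIR21-KO. In Ctrl the order by level was AGO2, AGO1, AGO4 and AGO3, and no neighbours in it overlapped over the 3 libraries. In MIR21-KO the ranges of AGO2, AGO4 and AGO1 overlapped one another, and only AGO3 lay apart.

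The summed FPKM of the 4 Argonautes was 10.6 ± 0.900 in Ctrl and 10.7 ± 2.03 in MIR21-KO, while its make-up differed. AGO4 contributed 11.3%, 12.2% and 13.3% in Ctrl and 29.2%, 29.9% and 24.8% in MIR21-KO. AGO2 contributed 55.4%, 49.5% and 49.4% in Ctrl and 32.2%, 32.7% and 39.5% in MIR21-KO. Neither share overlapped between groups, whereas AGO1 stayed within 24.3% to 28.5% in all 6 libraries. AGO2 exceeded AGO4 by 4.22 ± 0.614 times in Ctrl and 1.26 ± 0.284 times in MIR21-KO. AGO4, AGO1 and AGO3 lie in this order on the plus strand of chromosome 1 (GRCh38, AGO4 from 35808172 to 35857890), with 11917 bases between AGO4 and AGO1 and 189 bases between AGO1 and AGO3. Of the 3 neighbours, AGO4 was the one called.

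**Figure D2:**
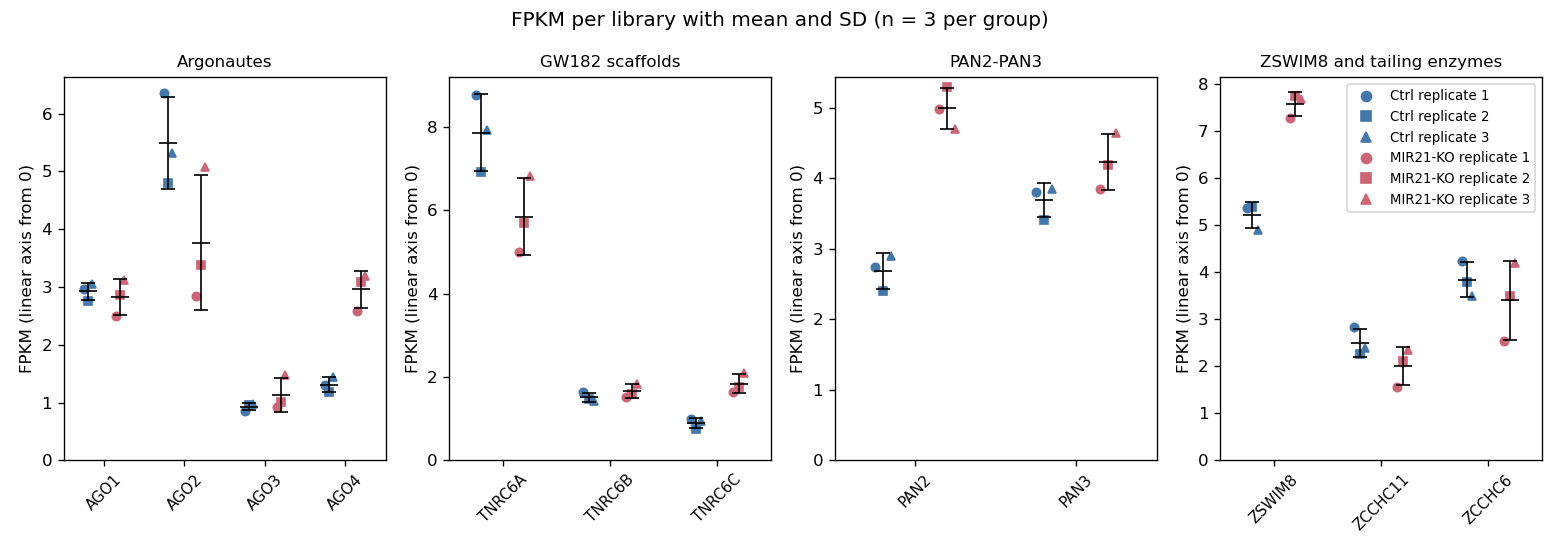
FPKM in each library (y axis, linear from 0) for the Argonautes, GW182 scaffolds, PAN2 and PAN3, and ZSWIM8 with the 2 tailing enzymes, with the mean and SD of 3 libraries per group. AGO4, TNRC6C, PAN2 and ZSWIM8 are higher in each MIR21-KO library (red) than in any Ctrl library (blue).

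Since miR-21-5p was the deleted miRNA, the longest annotated 3′ UTR of each gene was searched for matches to its seed. The mature sequence is given first, from RefSeq (GRCh38.p14), with its seed in capitals, followed by matches in 4 of the genes from GENCODE 29 (GRCh38), shown 5′ to 3′ with the match in capitals. AGO4 is shown for the single octamer match among the 45 genes, CNOT6 for its pair of matches, and DICER1 and PAN3 as a processing enzyme and a deadenylase adaptor with a heptamer.
miR-21-5p: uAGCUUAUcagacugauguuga
AGO4 site: tttgttttaaaATAAGCTAgaaccaggat
CNOT6 first site: tactaggacagATAAGCTgaacagtgatg
CNOT6 second site: ttatctgcactATAAGCTcaaagaatgtc
DICER1 site: tgcagtagttgATAAGCTgaatagaaaga
PAN3 site: gtccactttttATAAGCTttaaaatgatt

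The stretch in AGO4 lies at chr1:35854692-35854720 on the plus strand, with the match beginning at base 1098 of a 3′ UTR of 4285 bases. Those in CNOT6 lie at chr5:180574959-180574987 and chr5:180577731-180577759 on the plus strand. The DICER1 stretch lies at chr14:95090029-95090057 on the minus strand and the PAN3 stretch at chr13:28294028-28294056 on the plus strand. All lie in the 3′ UTR exon.

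The octamer ATAAGCTA, which contains the heptamer ATAAGCT followed by an A, was present on the transcribed strand in AGO4 alone of the 45 genes, and in 2.98% of 11657 tested protein-coding genes. The heptamer was found in 9 of the 45 genes (20.0%) and in 10.6% of the tested genes. Besides AGO4, CNOT6, DICER1 and PAN3 these were AGO2, CNOT8, CNOT9, DDX17 and TNRC6B. Of these 9 genes AGO4 was called higher and the other 8 were not called, with log2 fold changes from -0.56 in AGO2 to 0.19 in PAN3. The median log2 fold change was 0.05 over the 9 genes and -0.19 over the 36 without the heptamer. Over all tested protein-coding genes, the medians were -0.03 with the heptamer and -0.04 without it. Longer UTRs offer more room for a match, and the median 3′ UTR of the 45 genes was 1869 bases long, compared with 1622 bases for the tested genes. TNRC6C held no heptamer but the shorter match TAAGCTA, as did RAN and XRN1 (3 of 45 genes against 4.59% of tested genes). No match of these kinds was found in the UTRs of PAN2 and ZSWIM8. A match is a run of letters and does not show that the miRNA binds there.

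The let-7 seed was searched for in the same way. The sequence of let-7a-5p is given from RefSeq with its seed in capitals, since the seed is shared by the let-7 family, and it is followed by the octamer match in AGO3.
let-7a-5p: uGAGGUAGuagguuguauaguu
AGO3 site: cctgtcctcacCTACCTCActaaattgtt

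The heptamer CTACCTC was present in 6 of the 45 genes (13.3%) and in 12.6% of the tested genes. These were AGO1, AGO2, AGO3, CNOT2, CNOT9 and TARBP2, none of which was called. The octamer CTACCTCA was present in AGO2, AGO3 and CNOT2 (5.07% of tested genes). The shorter match TACCTCA, without the heptamer, was present in 10 of the 45 genes (22.2%) and in 7.69% of the tested genes. AGO4 was the one of these called, and the others were DICER1, TNRC6A, CNOT4, CNOT6, CNOT6L, CNOT7, CNOT11, DCP1B and XRN1. The median log2 fold change was -0.26 over these 10 genes and -0.18 over the other members. Over all tested protein-coding genes it was -0.11 with this match and -0.04 without it. The stretch in AGO3 lies at chr1:36069077-36069105 on the plus strand, in the 3′ UTR. Argonaute transcripts thus held most of the octamers of both kinds among the 45 genes, and their 3′ UTRs, at 4285 to 16755 bases, were among the longest.

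Of the GW182 scaffolds, the least abundant one in Ctrl rose. TNRC6C had 0.983, 0.762 and 0.934 FPKM in Ctrl and 1.64, 1.77 and 2.10 FPKM in MIR21-KO, a 2.06-fold rise (log2 fold change 0.96 ± 0.179, FDR = 0.00785, limma). The groups did not overlap, but the call rested on 91 to 142 reads per library in Ctrl and was lost without any one of the 6 libraries (FDR of 0.000725 to 0.0361 over all alternatives). TNRC6A, the predominant scaffold, had 8.77, 6.91 and 7.93 FPKM in Ctrl and 5.00, 5.71 and 6.84 FPKM in MIR21-KO, just without overlap (log2 fold change -0.43 ± 0.144, FDR = 0.0629, limma). TNRC6B overlapped between groups, at 1.51 ± 0.110 and 1.65 ± 0.166 FPKM. TNRC6C accounted for 8.63%, 8.33% and 9.08% of summed GW182 FPKM in Ctrl and for 20.1%, 19.5% and 19.4% in MIR21-KO. The share of TNRC6A was correspondingly 76.6 ± 0.827% in Ctrl and 62.5 ± 1.19% in MIR21-KO. Shares within a group agreed more closely than the FPKM themselves, since TNRC6A and TNRC6C were both lowest in replicate 1 and highest in replicate 3 of MIR21-KO. TNRC6A exceeded TNRC6C by 8.83 ± 0.306 times in Ctrl and 3.18 ± 0.117 times in MIR21-KO.

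**Figure D3:**
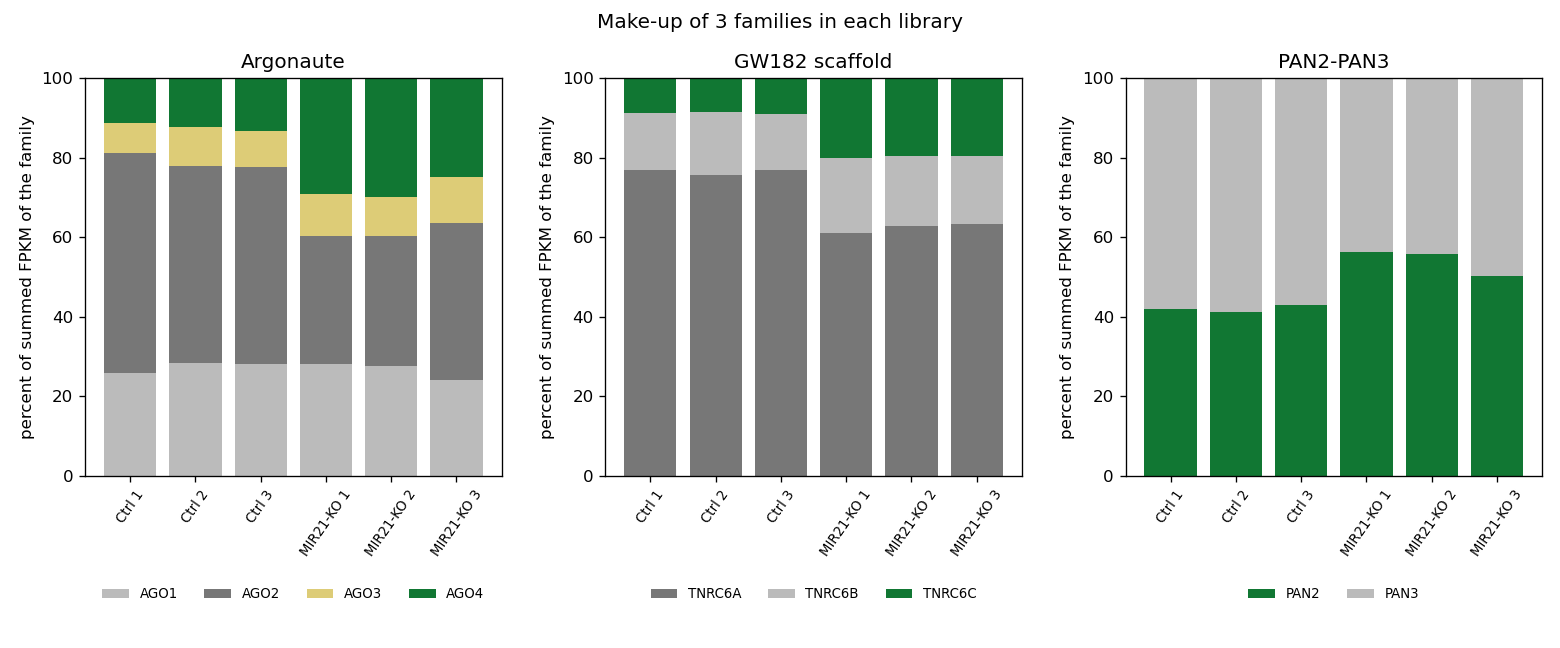
Percent of the summed FPKM of a family contributed by each gene (y axis) in each of the 6 libraries, for the 4 Argonautes, the 3 GW182 scaffolds and the pair PAN2 and PAN3. The shares of AGO4, TNRC6C and PAN2 (green) are larger in every MIR21-KO library than in any Ctrl library.

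Deadenylation begins with PAN2-PAN3, in which PAN2 is the nuclease and PAN3 the adaptor. PAN2 rose from 2.75, 2.40 and 2.90 FPKM in Ctrl to 4.99, 5.29 and 4.70 FPKM in MIR21-KO, 1.86-fold (log2 fold change 0.87 ± 0.114, FDR = 0.00210, limma). It was the least abundant of the 3 other deadenylases in Ctrl and lay well above the Ctrl range in all 3 MIR21-KO libraries. PAN3 also did not overlap, with 3.81, 3.41 and 3.84 FPKM in Ctrl and 3.85, 4.19 and 4.65 FPKM in MIR21-KO, but missed the threshold (log2 fold change 0.19 ± 0.113, FDR = 0.240, limma). PAN2 contributed 42.1 ± 0.862% of the summed FPKM of the pair in Ctrl and 54.2 ± 3.40% in MIR21-KO, so that the more abundant mRNA of the pair changed from PAN3 to PAN2 in each MIR21-KO library. PAN2 (chromosome 12, 56316223 to 56334053, minus strand) shares 114 bases with the neighbouring gene CNPY2 on the same strand. CNPY2 had 3.92 ± 0.358 FPKM in Ctrl and 4.21 ± 0.606 FPKM in MIR21-KO and was not called (FDR = 0.628, limma). PARN, a cap-stimulated deadenylase and the most abundant of the 3 in Ctrl, had 9.30, 9.97 and 11.3 FPKM in Ctrl and 9.55, 10.8 and 9.41 FPKM in MIR21-KO, with overlapping groups.

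The 11 genes of the CCR4-NOT complex, the main deadenylase of the cytoplasm, included none that was called, where 8.38% of all tested genes were called lower. Of their log2 fold changes 10 of 11 were below 0 (90.9%, against 51.5% of all tested genes), and in 7 of 11 genes (63.6%, against 25.2%) the MIR21-KO values lay below all Ctrl values. Their median log2 fold change was -0.26. With the trends on GC content and length removed, CNOT2 and CNOT6L came out above 0. CNOT1, the scaffold on which the complex assembles, was the most abundant, with 29.7, 22.2 and 24.5 FPKM in Ctrl and 12.6, 15.7 and 19.2 FPKM in MIR21-KO, a log2 fold change of -0.69 ± 0.175 (FDR = 0.0243, limma). It had the largest difference below 0 of the 45 genes, and its groups did not overlap. CNOT6L, a catalytic subunit and the least abundant, had 2.47, 1.83 and 2.59 FPKM in Ctrl and 1.68, 2.01 and 2.70 FPKM in MIR21-KO, with overlap.

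The remaining subunits of CCR4-NOT fell between these. Among the catalytic subunits, CNOT6 had 11.9 ± 1.08 FPKM in Ctrl and 8.76 ± 1.27 FPKM in MIR21-KO (FDR = 0.0382, limma), and CNOT7 had 11.5 ± 0.112 and 8.30 ± 1.02 (log2 fold change -0.48 ± 0.102, FDR = 0.0134, limma). CNOT8, the paralog of CNOT7, was the one subunit with values above Ctrl, at 13.1 ± 1.07 and 14.3 ± 0.338 FPKM (FDR = 0.306, limma). CNOT7 thereby made up 45.6% to 49.0% of the pair in Ctrl and 34.1% to 40.0% in MIR21-KO. CNOT11, one of the peripheral subunits, had 21.5 ± 0.551 FPKM in Ctrl and 17.9 ± 0.493 FPKM in MIR21-KO (FDR = 0.0221, limma). CNOT4, CNOT9 and CNOT10 also lay below Ctrl without overlap, with log2 fold changes from -0.11 to -0.26, while CNOT2 and CNOT3 overlapped. CNOT6, CNOT7 and CNOT11 were singled out for FDRs under 0.05 after their values were seen.

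Of the 8 decapping genes none was called, 7 had log2 fold changes below 0 (87.5%, against 51.5% of all tested genes) and 4 lay below Ctrl without overlap (50.0%, against 25.2%). None lay above, so that 4 of 8 did not overlap in either direction, near the 48.1% of all tested genes. With the trends on GC content and length removed, DCP2 and DDX6 had log2 fold changes above 0. PATL1, which bridges the LSM ring and the decapping enzyme, was the most abundant, with 31.4, 25.2 and 29.2 FPKM in Ctrl and 16.1, 19.5 and 23.2 FPKM in MIR21-KO, a log2 fold change of -0.55 ± 0.149 (FDR = 0.0309, limma). All MIR21-KO values lay below Ctrl, with replicate 3 the closest. DCP2, the decapping enzyme, was the least abundant, with 3.15, 2.93 and 3.15 FPKM in Ctrl and 2.63, 2.54 and 3.39 FPKM in MIR21-KO, where replicate 3 lay above the whole Ctrl range. EDC4, a scaffold that activates DCP2, had 9.82 ± 0.257 FPKM in Ctrl and 7.60 ± 0.344 FPKM in MIR21-KO, a log2 fold change of -0.37 ± 0.076 (FDR = 0.0116, limma). EDC3 and LSM1 did not overlap either (log2 fold changes -0.18 and -0.28), whereas DCP1A, DCP1B and the helicase DDX6, which links CCR4-NOT to decapping, did.

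XRN2, the nuclear 5′-3′ exoribonuclease, was the most abundant of the 3 exoribonucleases, with 76.7, 72.0 and 71.6 FPKM in Ctrl and 60.0, 65.8 and 69.1 FPKM in MIR21-KO (FDR = 0.143, limma). The groups did not overlap. DIS3L2, a 3′-5′ exonuclease for uridylated RNA, was the least abundant, with 1.95, 1.89 and 1.95 FPKM in Ctrl and 1.62, 1.41 and 1.94 FPKM in MIR21-KO, where replicate 3 lay within the Ctrl range. XRN1, the cytoplasmic counterpart of XRN2, had the widest spread among the MIR21-KO libraries, with 1.75, 2.45 and 3.91 FPKM compared with 2.14, 1.71 and 2.04 in Ctrl (log2 fold change 0.37 ± 0.281, FDR = 0.350, limma), and was singled out for this after its values were seen.

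ZSWIM8, the substrate adaptor of the ubiquitin ligase for target-directed miRNA degradation, rose 1.45-fold. It had 5.36, 5.39 and 4.89 FPKM in Ctrl and 7.28, 7.75 and 7.69 FPKM in MIR21-KO, a log2 fold change of 0.53 ± 0.084 (FDR = 0.00445, limma). The values within each group lay close together and the groups were far apart, on 461 to 793 reads per library. With a GC content of 60.7% ZSWIM8 was among the GC-rich of the 45 genes, and it was not called when the trends on GC content and length were removed (FDR of 0.00161 to 0.0454 over all alternatives). Of the terminal uridylyltransferases that tail miRNAs and decaying mRNAs, ZCCHC11 was the less abundant, with 2.84, 2.26 and 2.38 FPKM in Ctrl and 1.55, 2.10 and 2.34 FPKM in MIR21-KO. ZCCHC6 had 3.84 ± 0.374 FPKM in Ctrl and 3.40 ± 0.837 FPKM in MIR21-KO, and both overlapped between groups. SND1, a Tudor domain nuclease found in silencing complexes, also overlapped, with 38.5 ± 0.735 FPKM in Ctrl and 40.8 ± 2.70 FPKM in MIR21-KO.

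The 4 calls were not equally firm. AGO4 and PAN2 were each called in 14 of 18 alternative analyses, but not without Ctrl replicate 1, Ctrl replicate 2 or MIR21-KO replicate 2, nor with the replicate number as a block. No other of the 45 genes was called without those libraries either, and these 2 were the ones called without Ctrl replicate 3. AGO4 ranged in FDR from 0.000265 to 0.0171 and PAN2 from 0.000312 to 0.0196. TNRC6C was called in 8 of 18 and ZSWIM8 in 12 of 19. ZSWIM8 was not called when a Ctrl library, whichever it was, or MIR21-KO replicate 2 was left out. The direction of all 4 genes was the same in every alternative. At an FDR under 0.05 no further gene was higher, and 9 genes were lower, against 15.2% and 16.8% of all tested genes. These 9 were RAN, EDC4, CNOT7, XPO5, DROSHA, CNOT11, CNOT1, PATL1 and CNOT6.

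The balance between related proteins was tested for 9 pairs as the log2 ratio of their FPKM, by a two-sided exact permutation test over the 3 against 3 libraries, which cannot give a p below 0.1. In 6 pairs the ratios of the groups did not overlap, each with this smallest p and an adjusted p of 0.15, so no pair could pass. The ratio of TARBP2 to PRKRA was lower in MIR21-KO by 0.72 on the log2 scale (0.19 ± 0.097 in Ctrl and -0.53 ± 0.345 in MIR21-KO). That of CNOT7 to CNOT8 was lower by 0.60, that of TNRC6A to TNRC6B by 0.55 and that of CNOT6 to CNOT6L by 0.32. The ratios of XRN1 to XRN2 and of AGO1 to AGO2 were higher by 0.55 and 0.51. The pairs DDX5 and DDX17, DCP1A and DCP1B, and ZCCHC11 and ZCCHC6 overlapped, with differences of 0.10, -0.32 and -0.12 and exact permutation p-values of 0.4, 0.2 and 0.3. Apart from the 0.1 FPKM added to each gene, a ratio within a library does not depend on how libraries are scaled. It need not cancel a trend on GC content, which was 60.8% in TARBP2 and 37.6% in PRKRA. The log2 ratio of that pair was -0.27 in MIR21-KO replicate 1 and -0.92 in replicate 3.

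Finally, 103 other genes of miRNA processing, silencing and mRNA decay were read from the same fit, of which 100 were tested and TRIM71, NANOS1 and LIN28A lay under the filter. At an FDR under 0.01, 24 were lower and 4 higher by limma, against 8.38% and 7.66% of all tested genes. Without Ctrl replicate 1, 2 or 3, or without MIR21-KO replicate 2, 6 of the 100 were called (5 lower and 1 higher), where 5.72%, 5.81%, 5.54% and 4.91% of all tested genes were called. Those shares lie near the background. Their median log2 fold change was -0.28, and 55 of 100 lay below Ctrl without overlap, against 25.2% of all tested genes. The 10 proliferation markers above, lower in MIR21-KO, moved with this list too.

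Of the 12 genes listed for the loading of Argonautes, most of them chaperones and co-chaperones, 10 were called lower (83.3%, against 8.38% of all tested genes). Their list had a median log2 fold change of -0.55. The nuclease subunits TSN and TSNAX were the 2 not called. HSP90AA1, the inducible HSP90, fell from 542, 537 and 523 FPKM in Ctrl to 202, 212 and 215 FPKM in MIR21-KO, a log2 fold change of -1.35 ± 0.080 (FDR = 0.000122, limma). It was called in all 19 alternatives. The others were HSP90AB1, HSPA8, HSPA4, DNAJA1, DNAJA2, PTGES3, AHSA1 and FKBP4 together with the RNA kinase CLP1, at log2 fold changes from -0.91 to -0.42. Many of these proteins serve protein folding in general and not Argonaute loading alone. Without any 1 Ctrl library, or without MIR21-KO replicate 2, 5 of the 100 pathway genes were called lower. At most 5 of these 10 calls could thus hold there.

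Of the nuclear cofactors of Microprocessor 6 of 15 were lower (40.0%, against 8.38% of all tested genes). Among them were SRRT and NCBP1 of the cap-binding complex, HNRNPA2B1, KHSRP and METTL3, with log2 fold changes from -0.63 to -0.43. Of 16 genes of the exosome and SKI complexes 4 were lower, EXOSC2, EXOSC3, EXOSC8 and EXOSC10. EXOSC2, an RNA-binding cap subunit of the exosome, fell from 21.8, 21.8 and 22.1 FPKM to 11.6, 12.0 and 9.75 FPKM (log2 fold change -0.98 ± 0.094, FDR = 0.000704, limma). LIMD1, an adaptor that binds Argonautes and GW182 proteins, fell from 7.24, 6.84 and 7.15 FPKM to 2.36, 2.70 and 2.52 FPKM (log2 fold change -1.45 ± 0.096, FDR = 0.000177, limma). The groups stood far apart for both genes. RANGAP1, LSM5 and LIN28B were the other lower genes, with log2 fold changes of -0.48, -0.43 and -1.76, LIN28B on as few as 20 reads in a library. The study had already reported less LIN28B protein in these knockout cells.

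Higher were 3 of 11 adaptors that bring deadenylases to mRNAs, BTG1, BTG2 and ZFP36L1 (27.3%, against 7.66% of all tested genes). The translational repressor GIGYF1 was also higher (log2 fold change 0.45). The study had already reported BTG1 and BTG2 as higher in these same data, and the list was made with this known. The share of adaptors is therefore no independent support. BTG1, which binds CNOT7 and CNOT8, rose from 23.9, 23.2 and 24.1 FPKM to 53.5, 55.2 and 52.5 FPKM (log2 fold change 1.18 ± 0.064, FDR = 9.51e-05, limma). Its paralog BTG2 rose from 11.2 ± 0.888 to 17.0 ± 0.921 FPKM and ZFP36L1, which binds AU-rich elements, from 79.9 ± 2.54 to 114 ± 8.33 FPKM (FDR = 0.00351 and 0.00469, limma). The groups did not overlap in any of the 3. In the LSM ring, in cap hydrolysis and in nonsense-mediated decay, with 7, 3 and 9 genes tested, no gene was higher, and LSM5 was the one lower gene.

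**Figure D4:**
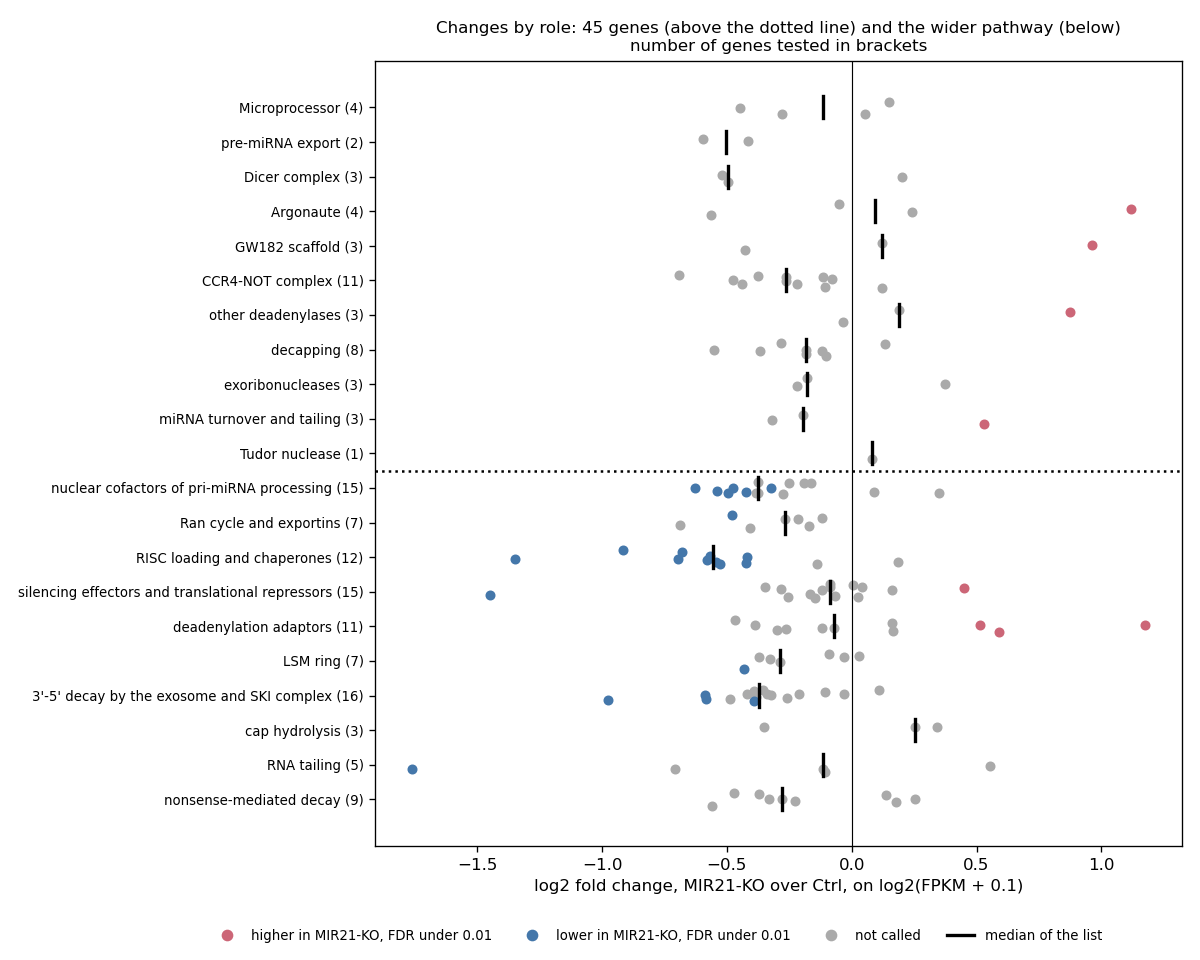
Log2 fold change of each tested gene, MIR21-KO over Ctrl on log2(FPKM + 0.1) (x axis), by role, with the 45 genes above the dotted line and the wider pathway below it. Coloured points passed an FDR of 0.01 and black bars mark list medians. Most medians lie below 0, among them those of the CCR4-NOT, decapping and chaperone lists (-0.26, -0.18 and -0.55). Those of pre-miRNA export and the Dicer complex are -0.51 and -0.50. Medians lie above 0 for Argonautes, GW182 scaffolds, other deadenylases, the Tudor nuclease and cap hydrolysis.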

How the data were processed

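Groups and replicate numbers were taken from sample titles (3 Ctrl, 3 MIR21-KO). The authors deposited FPKM values per gene and library, together with gene lengths and their own fold changes, p-values and FDRs, which were not used. According to the submitters' processing notes, cutadapt 1.14, HISAT2 2.1.0, SAMtools 1.5, featureCounts 1.5.3 and edgeR 3.18.1 were used with hg38, and the study's methods name TMM normalization. The annotation and the strand setting of counting are not given in the sources used here. How reads shared between genes were treated is also not given, which could affect RAN and its pseudogenes. All 37 mitochondrial genes are listed at 0 in every library. In each library, 100% of the products of FPKM and gene length came out as whole reads (within a tolerance of 0.01 reads), from which the reads were recovered. At the depths of these libraries, 0.0731 to 0.0930 FPKM corresponded to 1 read in a 1 kb gene.

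The 16006 genes averaging 0.5 FPKM or more were analysed with limma 3.58.1 (R 4.3.3) after adding 0.1 FPKM and taking log2, without covariates, and with trend and robust fitting in eBayes. Tests were two-sided, with Benjamini-Hochberg adjustment over all tested genes and calls at an FDR under 0.01. Log2 fold changes are on this scale, which understates those of low genes, whereas rises given as a fold are ratios of mean FPKM. FPKM are not counts, and a count model was not the main test. Members and gene lists were chosen with earlier results of these data known. Named with values in each library were called genes, the most and the least abundant gene in Ctrl of each role with at least 3 genes, and the 3 pathway genes with the smallest p in each direction. Others were named after their values were seen. Coordinates, 3′ UTRs and GC content came from GENCODE 29 (GRCh38), which matched 57836 of 58174 identifiers and all 45 genes.

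Alternatives were other pseudocounts (0.5 and 1), filters (none, 5 FPKM, 10 reads), scalings and an FDR of 0.05, protein-coding genes only, no trend or robust fitting, voom on recovered reads, removal of trends on GC content and length (lowess, span 0.3), the replicate number as a block, and leaving out each library. The procedure was run on simulated data, in which false calls by the main test exceeded the nominal FDR. There, voom recovered more of the changed genes with fewer false calls. The simulated reads had the same dispersion in every gene, no trend on GC content or length and no outlying library. Error rates in the real libraries, and whether voom does better on them, were therefore not measured. Python 3.11.15 with matplotlib 3.10.9 was used for the figures.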

Additional observations from a re-analysis of the deposited data

How the results depend on the processing

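The 4 higher genes were called in both tests with another pseudocount, with a minimum of 10 reads, with median-ratio scaling, with protein-coding genes only, without trend or robust fitting and with voom. With no filter or with scaling by total reads, 3 of them were called. Among genes of at least 5 FPKM, 26 of the 45 were tested, with 1 higher (ZSWIM8) and 4 lower. Of all genes tested with that filter, 10.1% were higher and 15.7% lower. Lower genes numbered 1 with a minimum of 10 reads, 1 with each other scaling, 5 of 9 calls with protein-coding genes only, 6 of 10 with voom and 9 of 13 each with GC and length trends removed and at an FDR under 0.05. Of all tested genes, 14.7% were called lower with protein-coding genes only and 11.4% with voom. The shares were 13.4% with the trends removed and 16.8% at an FDR under 0.05. Called over all genes were 3956 with the trends removed (2137 lower) and 5114 at an FDR under 0.05 (2428 higher, 2686 lower), and among genes of at least 5 FPKM 765 were higher. Of the 100 pathway genes, 15 were called with no filter (12 lower), 13 without trend or robust fitting (2 higher, 11 lower) and 47 at an FDR under 0.05 (42 lower). Over all genes, 1810, 1946 and 5114 were called in these 3 settings. The causes of these shifts were not tested.

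Leaving out 1 library at a time gave 784 to 3418 genes over all (392 to 1603 higher and 378 to 1815 lower), 0 to 11 of the 45 genes (0 to 3 higher and 0 to 8 lower) and 6 to 36 of the 100 pathway genes (1 to 6 higher and 5 to 30 lower). None of the 45 was called without Ctrl replicate 1, Ctrl replicate 2 or MIR21-KO replicate 2, where 5.72%, 5.81% and 4.91% of all tested genes were. The total over all genes was lowest without MIR21-KO replicate 2 and highest without MIR21-KO replicate 3.

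Some small log2 fold changes changed sign. With the trends removed, with or without the block, they were 0.101 for CNOT2, 0.0592 for CNOT6L, 0.0117 for PARN, 0.0490 for DCP2 and 0.0339 for DDX6. Leaving out 1 library gave -0.0709 to 0.182 for DDX17, -0.123 to 0.0332 for AGO1, -0.167 to 0.0237 for CNOT2, -0.291 to 0.0366 for CNOT6L and -0.100 to 0.0405 for PARN. The direction of the 9 pair ratios held in all alternatives.

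The replicate numbers did not pair the libraries: deviations of libraries with the same number correlated at -0.17, -0.02 and -0.02. Blocking on the replicate number left 651 calls over all genes, 379 of them higher and 272 lower, with 0 of the 45 and 4 of the pathway genes (1 higher, 3 lower). With the block and the trends removed, 2 of the 45 genes were called, both higher (AGO4 and PAN2), and 15 pathway genes (1 higher, 14 lower). Over all tested genes 1761 were called in that setting (835 higher, 926 lower), a larger share than among the 45. The block gave the smallest p it allows, 0.25, for most pair ratios.

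TNRC6C and AGO4 had as few as 91 and 92 reads in a library, and each group had 3 libraries. Whether depth limited the calls was not tested. Read numbers bear on counting error alone and not on the spread between libraries.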
